A study of Mus musculus with 9 samples.

Results

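The genes described are 10 markers of the cells that build retinal blood vessels, out of 25239 gene names in the tables. They were chosen by symbol, and the deposited TPM of rows with the same symbol were summed. TPM, the share of a gene among the transcripts of a library scaled to a total of 1000000, is corrected for the length of a gene and for the depth of a library. The 6 endothelial genes are *Cldn5*, *Pecam1*, *Cdh5*, *Kdr*, *Flt1* and *Tek*, and the 4 mural genes are *Pdgfrb*, *Acta2*, *Myh11* and *Rgs5*. Of the 10 genes, 9 had a mean TPM of at least 1 and entered the test across 15198 genes, and *Myh11* fell below this limit.

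Bulk RNA-Seq was done on whole retinas of *Rbpms*-CreERT2 knock-in mice on a C57BL/6J background at P42 (postnatal day 42). In these mice a P2A-CreERT2 sequence, coding for a self-cleaving peptide and a tamoxifen-dependent Cre recombinase, was joined to the end of the *Rbpms* coding sequence, so that the *Rbpms* promoter drives both proteins. There were 3 +/+ (wild type), 3 Cre/+ (heterozygous) and 3 Cre/Cre (homozygous) libraries, each made from the 2 retinas of a mouse, and no tamoxifen was named for them. Library depth was 27.0 to 31.0 × 10⁶ reads of 150 bases, derived from the ratio of coverage to FPKM. *Rbpms* itself, the targeted gene, measured 43.2, 38.4 and 43.4 TPM in +/+, 31.3, 32.2 and 33.1 in Cre/+ and 19.7, 19.1 and 24.2 in Cre/Cre, so that the 3 genotypes did not overlap. Its limma log2 fold change in Cre/Cre against +/+ was -0.96 (adjusted p = 0.000581). The study itself used DESeq2 with limits of a 2-fold change and an adjusted p of 0.05. It reported no gene past these limits in either knock-in genotype, and named *Rbpms* among the genes without significant change.

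Retinal capillaries are tubes of endothelial cells wrapped by pericytes, and arterioles carry a coat of smooth muscle in place of pericytes. Endothelial cells form the inner blood-retina barrier with tight junctions, and they respond to VEGF and angiopoietin ligands made by neurons and glia. Pericytes are held on the vessel by PDGF-B from the endothelium, which they sense through PDGFRβ. RBPMS is a marker of retinal ganglion cells in the retina, but in other organs it is also made by smooth muscle cells. Loss of *Rbpms* in mice is known to cause cardiovascular defects, which gives the vascular genes of these retinas their interest. The knock-in mice are not such a loss, since the study reported both Cre/+ and Cre/Cre mice to be viable and fertile. It found RBPMS protein staining in ganglion cells similar in all genotypes. Fluorescein angiography there showed retinal vessels of similar distribution in all genotypes.

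The sequences around 4 annotated start sites are shown first. *Kdr* and *Flt1* are the most abundant endothelial members, *Cldn5* varied in the opposite direction to *Kdr* over the libraries, and *Acta2* varied the most. RefSeq (GRCm38.p6) held a promoter for 6 of the 10 members, each from 250 bases before to 50 bases after the start, and the deposited tables (mm10, the same assembly) begin these genes at the same base. The windows are chr5:75978406-75978705 (minus strand) for *Kdr*, chr5:147725962-147726261 (minus strand) for *Flt1*, chr16:18776597-18776896 (plus strand) for *Cldn5* and chr19:34255324-34255623 (minus strand) for *Acta2*. Each is written 5′ to 3′ along the gene. Capitals mark the GC box GGGCGG, on either strand, in the first 3 sequences. In *Acta2* they mark 2 stretches that differ from a CArG box, the site of serum response factor, at 1 base.
Kdr: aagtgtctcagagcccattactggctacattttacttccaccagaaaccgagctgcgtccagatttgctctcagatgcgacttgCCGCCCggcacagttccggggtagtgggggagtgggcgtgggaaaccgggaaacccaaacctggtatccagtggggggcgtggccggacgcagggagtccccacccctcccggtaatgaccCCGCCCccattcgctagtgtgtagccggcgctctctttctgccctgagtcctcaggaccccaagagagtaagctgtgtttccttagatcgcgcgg
Flt1: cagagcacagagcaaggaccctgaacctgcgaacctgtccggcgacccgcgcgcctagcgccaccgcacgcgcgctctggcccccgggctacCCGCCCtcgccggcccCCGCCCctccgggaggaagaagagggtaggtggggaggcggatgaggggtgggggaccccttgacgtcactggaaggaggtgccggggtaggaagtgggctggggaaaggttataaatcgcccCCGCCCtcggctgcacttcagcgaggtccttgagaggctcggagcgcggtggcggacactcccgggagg
Cldn5: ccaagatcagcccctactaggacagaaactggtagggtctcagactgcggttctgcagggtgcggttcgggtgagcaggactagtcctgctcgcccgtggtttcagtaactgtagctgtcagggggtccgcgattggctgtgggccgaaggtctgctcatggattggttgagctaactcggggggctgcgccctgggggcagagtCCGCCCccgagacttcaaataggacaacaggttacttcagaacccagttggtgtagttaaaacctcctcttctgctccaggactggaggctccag
Acta2: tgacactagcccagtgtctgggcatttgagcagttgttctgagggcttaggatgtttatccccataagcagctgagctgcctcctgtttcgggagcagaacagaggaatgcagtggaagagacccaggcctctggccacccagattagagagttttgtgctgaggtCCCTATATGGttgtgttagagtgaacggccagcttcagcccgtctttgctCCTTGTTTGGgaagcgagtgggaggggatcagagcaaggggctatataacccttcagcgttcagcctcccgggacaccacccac
The GC box occurred 2 times in the *Kdr* window, 3 times in *Flt1* and 1 time in *Cldn5*, and 35.7% of 32851 RefSeq promoters of 300 bases held at least 1. No window of the 6 members held an intact CArG box, which 1.63% of all promoters did. With 1 mismatch allowed, 21.1% of all promoters held a CArG box and 3.7% held 2 or more. Of the 6 members only *Acta2* had 2, beginning 84 and 34 bases before the start, while *Kdr* and *Tek* had 1 each. The letters TATAAA, present on either strand in 13.6% of all promoters, were found in *Flt1* alone among the 6, beginning 31 bases before the start. These matches describe letters and not bound sites.

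The members spanned a wide range of levels in the whole retina. *Kdr* had the highest mean over the 9 libraries, 104 TPM ± 13.2 (SD, n = 9), followed by *Rgs5* at 53.7 ± 5.07, *Flt1* at 43.9 ± 2.86 and *Cldn5* at 22.7 ± 3.002. *Pdgfrb* (8.86 ± 0.831) and *Pecam1* (8.83 ± 1.05) were next, then *Tek* (5.23 ± 0.808), *Cdh5* (3.51 ± 0.429), *Acta2* (1.77 ± 0.656) and *Myh11* (0.983 ± 0.270). The ranges over the 9 libraries overlapped for the neighbours *Rgs5* and *Flt1*, *Pdgfrb* and *Pecam1*, *Tek* and *Cdh5*, and *Acta2* and *Myh11*. All other neighbours in this order were apart in every library. *Kdr* stood at the 86.9th percentile of tested genes by mean TPM and *Acta2* at the 6.11th.

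**Figure D1:**
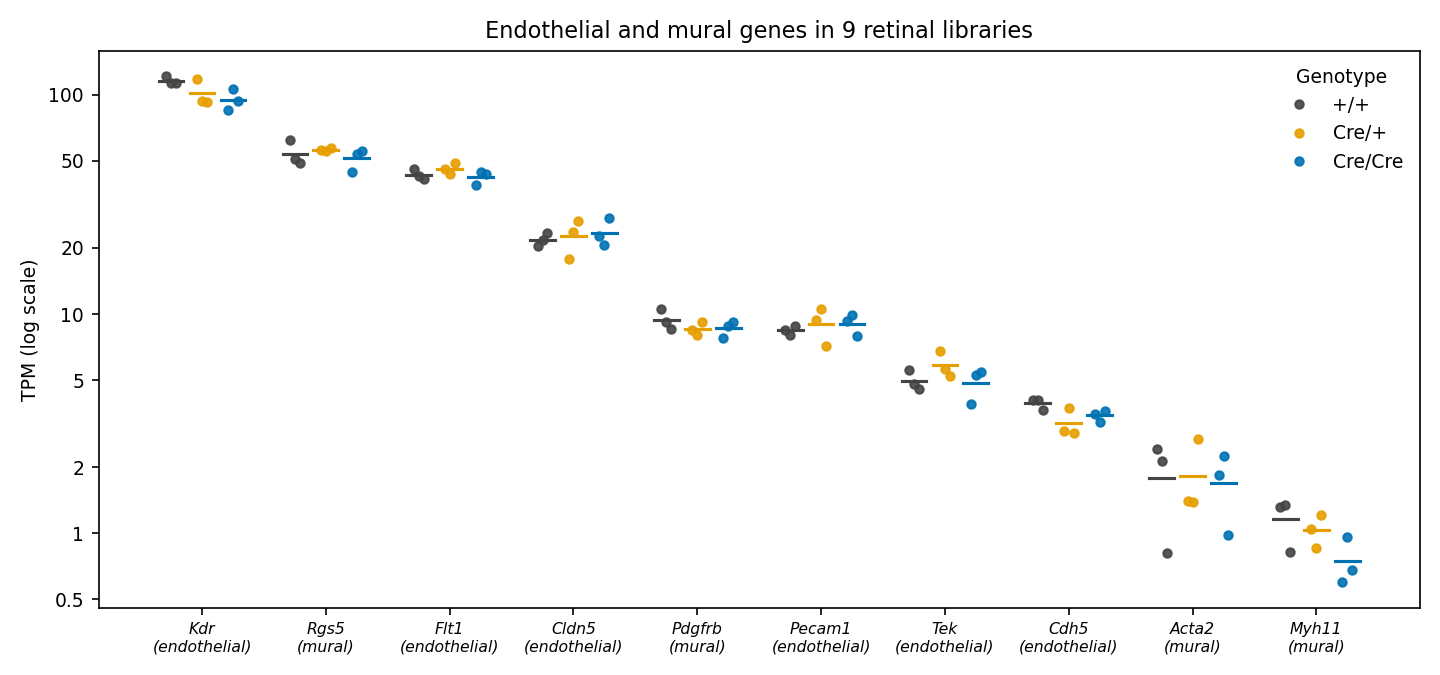
TPM of the 10 genes on a logarithmic axis, ordered by their mean over 9 libraries. Points are libraries and short lines are genotype means (+/+ grey, Cre/+ orange, Cre/Cre blue, 3 libraries each). *Kdr* is highest at 85.2 to 122 TPM, *Myh11* is lowest at 0.597 to 1.35, and the genotypes overlap for most genes.

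Among the endothelial genes the VEGF receptors made up most of the signal. *Kdr* and *Flt1* together held 75.6% to 81.6% of the summed TPM of the 6 endothelial genes, and *Rgs5* held 80.0% to 84.4% of the summed TPM of the 4 mural genes. *Kdr* was 24.4 to 40.4 times and *Flt1* 10.6 to 17.1 times as abundant as *Cdh5*, which codes for VE-cadherin of the endothelial junction. Both receptor genes are known from retinal cells outside the vessels too, *Kdr* from neurons and *Flt1* in its soluble form from photoreceptors. How much of their TPM came from endothelium was not measured here. Fewer cells of a type and less RNA per cell cannot be told apart in such bulk samples, here or in the comparisons that follow.

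The tables also hold a sign of how reads were divided among transcripts. The ratio of coverage to FPKM has 1 common value in most rows of a library, and it was at this value (within 0.1%) for 96.4% of genes with 1 curated RefSeq transcript and for 11.8% of genes with 2 or more in +/+ replicate 1. *Flt1* stood at 60.9% to 61.5% of the common value and *Kdr* at 76.8% to 77.0%. *Rgs5* stood at 90.1% in every library, whereas *Cldn5*, *Cdh5* and *Acta2*, each with 1 curated transcript, were at 100%. Of the other members with several, *Pecam1* (4 transcripts) was at 97.3% to 99.3%, but *Tek* (3), *Pdgfrb* (2) and *Myh11* (2) were at 99.8% or more, so the members did not split cleanly by transcript number. The ratios of *Flt1*, *Kdr* and *Rgs5* hardly moved between libraries, and the genotypes overlapped in each. Transcripts of 1 gene were not separated here.

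No member was called by limma, the only tool run, in any comparison at an adjusted p of 0.05. The background was 0.00658% of the 15198 genes called in Cre/+ against +/+, 0.00658% in Cre/Cre against +/+ and 0.0132% in Cre/Cre against Cre/+. At an unadjusted p under 0.05 the counts were 0, 1 and 0 of 9 members, against 10.7%, 6.97% and 6.58% of all genes. The 95% intervals of the fold changes on the log2(TPM + 1) scale lay between 0.667 and 1.55 in Cre/+ against +/+ and between 0.652 and 1.47 in Cre/Cre against +/+ over the 9 genes. All of these bounds are inside the 2-fold limit that the study used. This scale understates the change of low genes such as *Acta2*. The median log2 fold change of the 9 genes was 0.04 in Cre/+ and -0.03 in Cre/Cre, against 0.001 and -0.024 over all genes tested. In Cre/Cre, 7 of the 9 lay below 0, as did 57.7% of all genes, and in Cre/+ 3 of the 9 did, as did 49.6% of all genes.

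**Figure D2:**
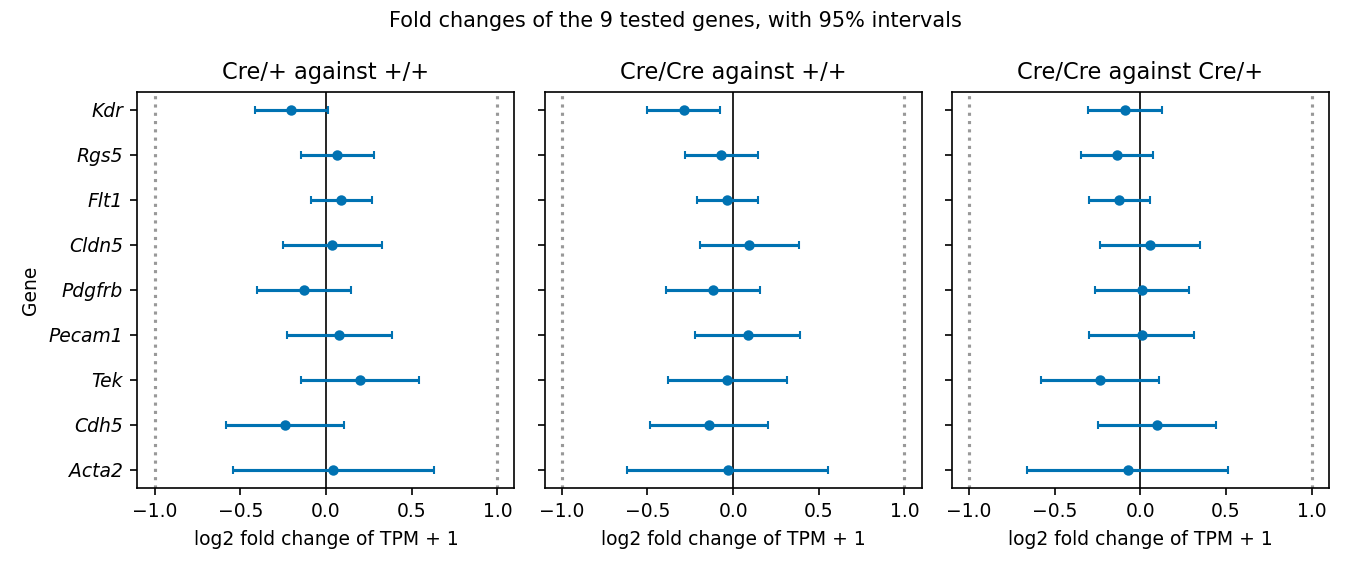
Log2 fold changes of TPM + 1 for the 9 tested genes in the 3 comparisons, with 95% confidence intervals from limma; dotted lines mark 2-fold changes. Every interval stays inside the dotted lines, and only that of *Kdr* in Cre/Cre against +/+ (-0.50 to -0.07) leaves out 0.

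The receptors for endothelial growth factors are taken first. *Kdr*, which codes for VEGFR2, the main signalling receptor for VEGF-A, lies on chromosome 5 of mm10 (75932827 to 75978455, minus strand) and was covered by 71.8 to 123 reads per base. It measured 122, 113 and 114 TPM in the +/+ libraries, 118, 93.2 and 92.4 in Cre/+ and 85.2, 106 and 94.0 in Cre/Cre. All Cre/Cre libraries were below all +/+ libraries, while the Cre/+ libraries reached into both groups. No member was free of overlap in Cre/+ against +/+, where 22.2% of all genes were. The log2 fold change in Cre/Cre was -0.29 ± 0.10 (SE), or 0.819-fold with a 95% interval of 0.705 to 0.95, and limma gave an unadjusted p of 0.0117 and an adjusted p of 0.624. It was -0.20 in Cre/+ (adjusted p = 0.48) and -0.14 per knock-in allele (limma adjusted p = 0.731). *Kdr* was the only member with an unadjusted p under 0.05, against 5.39% of all genes lower at that limit in Cre/Cre.

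Other features also differed between the libraries. The ribosomal RNA precursor *Rn45s* took 9.21% of the TPM in Cre/Cre replicate 1 and 0.0827% to 0.336% in the other 8 libraries, and the typical gene of this library stood at 0.917 of its level across libraries. Cre/Cre replicate 1 was the lowest of the 9 libraries for 6 of the 10 members (*Kdr*, *Flt1*, *Tek*, *Pdgfrb*, *Myh11* and *Rgs5*). After scaling by the median ratio, *Kdr* measured 93.0, 104 and 91.2 in Cre/Cre against 120, 115 and 111 in +/+ and still did not overlap. Its log2 fold change was -0.26 after this scaling and -0.21 without Cre/Cre replicate 1. *Xist*, an RNA that cells with a silenced X chromosome make, stood at 516 to 571 TPM in all +/+ libraries, but at 2.08 to 3.16 in Cre/+ replicate 3 and in Cre/Cre replicates 1 and 3, 3 libraries in which *Kdr* was 85.2 to 94.0. In the 6 libraries with high *Xist*, *Kdr* ranged from 93.2 to 122 with a median of 113. With *Xist* in the model the log2 fold change of *Kdr* in Cre/Cre was -0.14 (limma adjusted p = 0.989). *Eif2s3y*, a gene of the Y chromosome, stood at 154 to 183 TPM in these 3 libraries and at 0.548 or less in the other 6, and *Ddx3y*, *Kdm5d* and *Uty*, also on the Y chromosome, were high in the same 3. The labels give no sex, but by these genes the 3 libraries come from males and the other 6, all +/+ libraries among them, from females. Sex and genotype therefore cannot be told apart in full.

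Markers of other retinal cells were read beside *Kdr*, and none was called by limma. Of 9 such markers (*Gnat1* and *Pde6b* for rods, *Rlbp1*, *Glul* and *Slc1a3* for Müller glia, *Grm6* for bipolar cells, *Pou4f1*, *Thy1* and *Rbpms2* for ganglion cells), all 9 had a log2 fold change below 0 in Cre/Cre against +/+, and 3 had an unadjusted p under 0.05, where 57.7% of all genes lay below 0 and 5.39% were lower at that limit. The log2 fold changes of *Gnat1* and *Pde6b* were -0.09 and -0.002. *Thy1*, a surface protein of ganglion cells, measured 342, 344 and 344 TPM in +/+, 303, 327 and 317 in Cre/+ and 253, 299 and 281 in Cre/Cre (log2 fold change -0.31, limma adjusted p = 0.45). *Pou4f1*, a transcription factor of ganglion cells, measured 22.4, 23.9 and 22.8 in +/+, 23.6, 24.7 and 22.5 in Cre/+ and 16.8, 20.2 and 21.2 in Cre/Cre (-0.24, limma adjusted p = 0.664). In both genes all Cre/Cre libraries were below all +/+ libraries, as for *Kdr* and for 8.05% of all genes tested. Cre/Cre replicate 1, whose typical gene stood at 0.917 of its level across libraries, was the lowest of the 9 in both. The values of *Thy1* and *Pou4f1* were not scaled by the median ratio, so a part of this library in their gap was not tested. *Grm6*, the glutamate receptor of ON bipolar cells, was 121 to 140 in +/+ and 96.9 to 128 in Cre/Cre (-0.23, limma adjusted p = 0.67), with overlap. *Rbpms2* had a log2 fold change of -0.14 and overlapped too. Their part in the lower *Kdr* was not tested.

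*Flt1*, whose product VEGFR1 binds VEGF-A and largely restrains it, lies on the same chromosome (147561604 to 147726011, minus strand). Its TPM was 45.7, 42.6 and 41.5 in +/+, 45.8, 43.6 and 48.9 in Cre/+ and 38.8, 44.5 and 43.4 in Cre/Cre. The genotypes overlapped throughout, with log2 fold changes of 0.09 ± 0.08 (SE) in Cre/+ and -0.03 ± 0.08 in Cre/Cre (limma adjusted p = 0.697 and 0.98). *Flt1* had the smallest residual spread of the members, a log2 SD of 0.086 against a median of 0.13 over all genes. *Tek*, which codes for the angiopoietin receptor TIE2 (chromosome 4, 94739289 to 94874976, plus strand), measured 5.55, 4.80 and 4.54 in +/+, 6.79, 5.60 and 5.21 in Cre/+ and 3.87, 5.26 and 5.45 in Cre/Cre. Its groups overlapped as well, and the intervals reached from 0.904- to 1.46-fold in Cre/+ and from 0.769- to 1.24-fold in Cre/Cre. The direction of *Tek* in Cre/Cre depended on the model, with a log2 fold change of -0.03 and of 0.10 with *Xist* in the model.

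The junction genes of the endothelium did not move together. *Cdh5* (chromosome 8, 104101625 to 104144502, plus strand) measured 4.05, 4.03 and 3.65 TPM in +/+, 2.93, 3.73 and 2.86 in Cre/+ and 3.50, 3.23 and 3.62 in Cre/Cre. The highest Cre/Cre value was just under the lowest +/+ value, and the Cre/+ values overlapped with +/+. The log2 fold change was -0.14 ± 0.16 (SE) in Cre/Cre and -0.24 ± 0.16 in Cre/+ (limma adjusted p = 0.926 and 0.585). After median-ratio scaling *Cdh5* reached 3.82 in Cre/Cre replicate 1, above the 3.57 of +/+ replicate 3, so the gap closed. *Kdr* and *Cdh5* were thus 2 of 9 members whose Cre/Cre and +/+ libraries did not overlap, where 10.8% of all genes did not, and 8.05% were lower without overlap. After scaling it was 1 of 9, against 7.18% of all genes lower without overlap.

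*Pecam1* codes for CD31, an adhesion protein of the endothelial surface (chromosome 11, 106654213 to 106715281, minus strand), and measured 8.49, 8.02 and 8.77 TPM in +/+, 9.44, 10.5 and 7.17 in Cre/+ and 9.26, 9.90 and 7.92 in Cre/Cre. *Cldn5*, the main claudin of the barrier tight junction (chromosome 16, 18776847 to 18778262, plus strand), measured 20.4, 21.8 and 23.4 in +/+, 17.8, 23.7 and 26.6 in Cre/+ and 22.6, 20.6 and 27.3 in Cre/Cre. In both genes the +/+ libraries lay close together inside the wider range of the knock-in libraries. Log2 fold changes in Cre/Cre were 0.08 ± 0.14 (SE) for *Pecam1* and 0.09 ± 0.14 for *Cldn5*, and neither gene had a limma adjusted p under 0.87 in any comparison with +/+. *Cldn5* was 22.6 to 27.3 TPM in the 3 libraries with low *Xist* and 17.8 to 23.7 in the 6 with high *Xist*. With *Xist* in the model its log2 fold change turned to -0.06 in Cre/+ and -0.11 in Cre/Cre. As for *Kdr*, no +/+ library is there to compare within low *Xist*.

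Of the mural genes, *Rgs5* and *Pdgfrb* are the pericyte genes. *Rgs5*, a regulator of G protein signalling and a standard pericyte marker (chromosome 1, 169655501 to 169695813, plus strand), measured 61.9, 50.7 and 48.9 TPM in +/+, 55.7, 55.5 and 57.1 in Cre/+ and 44.5, 53.8 and 55.4 in Cre/Cre. The Cre/+ libraries were tightly grouped (SD 0.861, n = 3), and all lay above the Cre/Cre libraries, the closest pair being 55.5 and 55.4. Against +/+ neither knock-in genotype was apart, with log2 fold changes of 0.07 ± 0.10 (SE) and -0.07 ± 0.10. In Cre/Cre against Cre/+ the log2 fold change was -0.14 (limma adjusted p = 0.773), and 7.23% of all genes were lower without overlap in that comparison. *Pdgfrb* (chromosome 18, 61045150 to 61085067, plus strand), the PDGF-B receptor, measured 10.6, 9.18 and 8.54 in +/+, 8.43, 8.01 and 9.19 in Cre/+ and 7.78, 8.82 and 9.23 in Cre/Cre. Its genotypes overlapped, and its log2 fold changes were -0.13 ± 0.13 and -0.12 ± 0.13. *Rgs5* was 5.52 to 5.84 times as abundant as *Pdgfrb* in +/+, 6.22 to 6.93 times in Cre/+ and 5.72 to 6.10 times in Cre/Cre, a ratio given as a description.

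The contractile genes were the lowest of the members. *Acta2*, which codes for smooth muscle actin (chromosome 19, 34240336 to 34255373, minus strand), measured 2.43, 2.13 and 0.817 TPM in +/+, 1.40, 1.39 and 2.69 in Cre/+ and 1.84, 2.24 and 0.984 in Cre/Cre, on 0.981 to 3.23 reads per base. Each genotype held high and low libraries, and the highest value was 3.3 times the lowest. Its residual log2 SD was 0.412, the largest of the members, against a median of 0.267 for tested genes of 1 to 3 TPM. The intervals reached from 0.685- to 1.55-fold in Cre/+ and from 0.652- to 1.47-fold in Cre/Cre. Reads of *Acta2* can be hard to part from those of near-identical actins, and these measured 432 to 529 TPM for *Actb*, 638 to 807 for *Actg1*, 2.30 to 6.60 for *Actc1*, 1.64 to 3.34 for *Acta1* and 0 to 0.752 for *Actg2*.

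*Myh11*, the smooth muscle myosin heavy chain (chromosome 16, 14194527 to 14291408, minus strand), measured 1.32, 1.35 and 0.825 TPM in +/+, 1.05, 0.857 and 1.21 in Cre/+ and 0.597, 0.962 and 0.677 in Cre/Cre. Cre/Cre held the 2 lowest libraries, but its highest value was above the lowest +/+ value. The Cre/Cre mean was 64.0% of the +/+ mean. In the fit without a filter on low values, over 20504 genes, its log2 fold change was -0.31 ± 0.16 (SE) in Cre/Cre and -0.08 ± 0.16 in Cre/+ (limma adjusted p = 0.791 and 0.9). The 95% interval of the log2 fold change in Cre/Cre, -0.65 to 0.04, held 0. *Myh11* was covered by 0.655 to 1.87 reads per base, and its counting error is unknown.

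**Figure D3:**
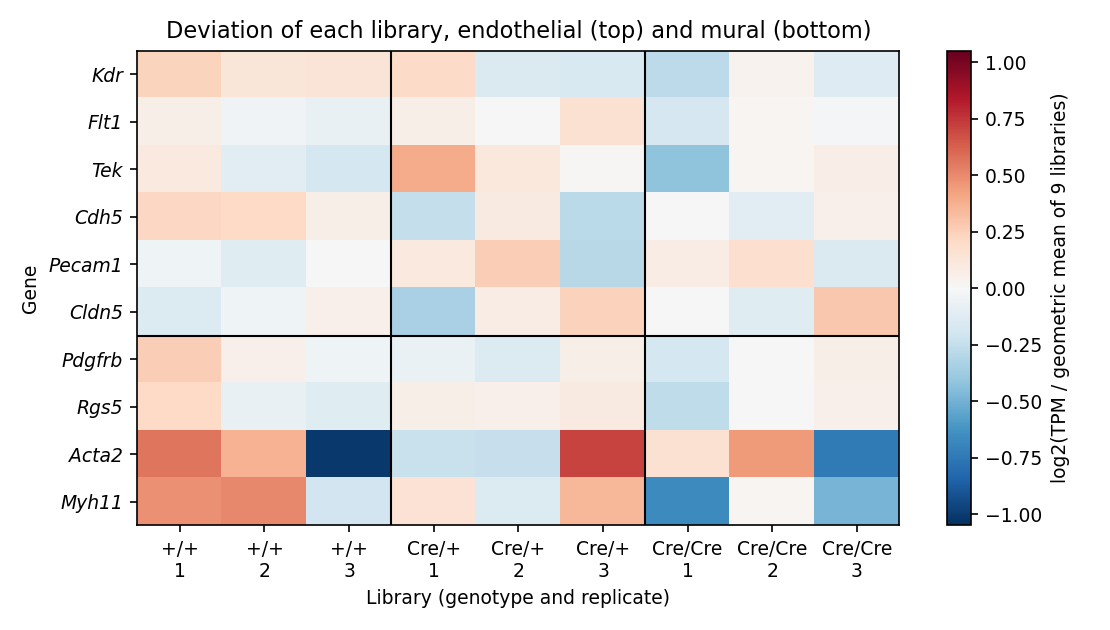
Heat map of log2(TPM divided by the geometric mean of the 9 libraries) for each gene (rows, endothelial above the line and mural below) and library (columns, 3 per genotype). *Acta2* spans from -1.01 in +/+ replicate 3 to 0.71 in Cre/+ replicate 3, and Cre/Cre replicate 1 is at or near the low end for *Kdr* (-0.28), *Tek* (-0.42), *Rgs5* (-0.27) and *Myh11* (-0.67).

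Summed over the 6 endothelial genes, TPM was 206, 194 and 195 in +/+, 201, 180 and 183 in Cre/+ and 163, 190 and 182 in Cre/Cre. The Cre/Cre mean was 89.8% and the Cre/+ mean 94.9% of the +/+ mean. Without *Kdr* and *Flt1* the sum was 38.5 to 40.3 in +/+, 37.0 to 43.5 in Cre/+ and 39.0 to 44.3 in Cre/Cre. The lower total of Cre/Cre was carried by *Kdr*, whose mean was 116 in +/+ and 95.1 in Cre/Cre. *Flt1* had means of 43.2 and 42.3 in the same groups. The 4 mural genes summed to 76.2, 63.3 and 59.1 in +/+, 66.6, 65.8 and 70.2 in Cre/+ and 54.7, 65.8 and 66.3 in Cre/Cre, with overlap between all genotypes. The Cre/Cre mean of the mural sum was 94.0% and the Cre/+ mean 102% of the +/+ mean.

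Over the 9 libraries the mural genes varied together more than the endothelial genes did. Pearson's r of log2(TPM + 1) was above 0 in 6 of 6 pairs of mural genes (median 0.60), but in 8 of 15 pairs of endothelial genes (median 0.02). These are descriptions over 9 libraries that share genotype, depth and, in 1 case, a large share of ribosomal RNA. The highest value was between *Flt1* and *Rgs5* (r = 0.85), and *Tek* was also close to *Rgs5* (r = 0.79) and to *Flt1* (r = 0.72). The lowest was between *Cldn5* and *Kdr* (r = -0.68). In the 3 libraries with low *Xist* the median of *Cldn5* was 26.6 TPM and that of *Kdr* 92.4. In the 6 with high *Xist* they were 21.2 and 113, with overlapping ranges in both genes. The part of sex in this r was not tested. In *Pdgfrb*, r was 0.70 with *Rgs5*, 0.67 with *Myh11* and 0.40 with *Acta2*, and *Acta2* and *Myh11* had an r of 0.63.

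The genes most like the members were sought over all tested genes by Pearson's r with the mean z-score of the group over the 9 libraries. For the endothelial group they were *Ggnbp2* (r = 0.967), *Prps1* (0.96), *Uqcc1* (0.956), *Alkbh1* (0.955) and *Tulp3* (0.954). None of these is on the vascular lists used here, and the endothelial members themselves had r between -0.25 (*Cldn5*) and 0.77 (*Tek*). For the mural group they were *Pet100* (r = 0.943), *2700069I18Rik* (0.933), *Dag1* (0.924), *Gcdh* (0.919) and *Ube2f* (0.913). *Pdgfrb*, *Rgs5* and *Acta2* had an r of 0.85, 0.79 and 0.71 with the same mean. The mean of each group holds its own members, *Myh11* included, which raises the r of every member with it.

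Other genes of the vessel wall were taken from 6 lists with 108 genes, of which 98 were tested. None was called by limma at an adjusted p of 0.05 in any comparison. Without overlap of the libraries, 11 of the 98 were lower and 4 higher in Cre/+ against +/+, where 10.3% and 11.9% of all genes were. In Cre/Cre against +/+ 9 were lower and 3 higher without overlap, against 8.05% and 2.7% of all genes. These shares are the background of the genes named below as lower without overlap. At an unadjusted p under 0.05, 3 of the 98 were higher and 2 lower in Cre/+ against +/+, where 4.9% and 5.82% of all genes were. In Cre/Cre against +/+ 3 were higher and 4 lower, or 3.06% and 4.08% of the 98, against 1.58% and 5.39% of all genes. In Cre/Cre against Cre/+ 3 were higher and 5 lower, against 2.38% and 4.2% of all genes. The 3 higher genes in Cre/Cre against +/+ were all among the 22 genes of endothelial identity, of which 20 were tested and 0 were lower at that limit. *Adgrl4*, an adhesion receptor of endothelial cells, measured 5.28, 4.52 and 4.59 TPM in +/+, 6.29, 7.35 and 6.69 in Cre/+ and 6.89, 6.40 and 9.03 in Cre/Cre. Both knock-in genotypes lay above +/+ in every library, as 11.9% of all genes did in Cre/+ and 2.7% in Cre/Cre, with log2 fold changes of 0.42 and 0.53 (limma adjusted p = 0.397 and 0.542). *Sox18*, a transcription factor of endothelial cells, measured 2.39, 2.46 and 2.01 in +/+, 2.85, 2.58 and 4.08 in Cre/+ and 5.75, 2.43 and 4.56 in Cre/Cre (log2 fold change 0.62, limma adjusted p = 0.647). The remaining gene was *Ramp2*, named here after its values were seen, with a log2 fold change of 0.40. In the 3 libraries with low *Xist*, *Sox18* was 4.08 to 5.75 TPM and *Ramp2* 8.498 to 11.65. Both were lower in all of the 6 with high *Xist*, at 2.01 to 2.85 and 6.275 to 8.425. *Adgrl4* overlapped between these libraries, at 6.69 to 9.03 and 4.52 to 7.35. The part of sex in the 3 genes was not tested.

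The most abundant genes of endothelial identity were *Ly6c1*, *Esam* and *Nos3*. *Ly6c1*, a surface antigen of capillary endothelium, measured 31.4, 33.8 and 30.2 TPM in +/+ and 33.6, 48.1 and 42.4 in Cre/+ (log2 fold change 0.36, limma adjusted p = 0.377), and 39.8, 35.6 and 36.9 in Cre/Cre. *Nos3*, the endothelial nitric oxide synthase, measured 13.0, 11.4 and 13.6 in +/+ and 10.03, 9.55 and 10.01 in Cre/+ (-0.33, limma adjusted p = 0.397). In *Nos3* the Cre/+ libraries were all below +/+, a pattern that 10.3% of all genes had, and the Cre/Cre values of 11.8, 12.0 and 10.6 overlapped with +/+. *Esam*, a junctional adhesion protein, was 19.97 to 26.2 in +/+, 25.6 to 28.6 in Cre/+ and 20.5 to 22.2 in Cre/Cre. The median log2 fold change of the list was 0.05 in Cre/Cre and 0.01 in Cre/+.

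All 20 genes of the blood-retina barrier were tested. At an unadjusted p under 0.05, 0 were higher or lower in Cre/Cre, and 1 was higher in Cre/+, *Jam2* (98 to 104 TPM in +/+, 110 to 119 in Cre/+). The study names *Jam2* among genes of ganglion cells or their subtypes, and which cells gave its TPM was not tested. The median log2 fold changes of the list were 0.01 in Cre/Cre and 0.04 in Cre/+. *Slc2a1*, the glucose transporter of barrier endothelium that retinal neurons and glia also use, measured 209, 216 and 210 in +/+, 185, 193 and 196 in Cre/+ and 206, 222 and 217 in Cre/Cre. *Ocln*, which codes for occludin, had the smallest p of the list in Cre/Cre (log2 fold change 0.36, limma adjusted p = 0.77), with 3.70, 2.36 and 2.08 in +/+ and 3.78, 3.16 and 4.23 in Cre/Cre.

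*Plvap*, next by p, is a gene of fenestrated endothelium that barrier endothelium normally lacks. It measured 7.35, 9.50 and 7.81 TPM in +/+, 7.74, 5.90 and 7.48 in Cre/+ and 7.12, 5.59 and 7.67 in Cre/Cre, from 5.59 to 9.50 over all libraries, where *Pecam1* was 7.17 to 10.5. Fenestrated vessels lie in the choroid next to the pigment epithelium, and the 9 genes of pigment epithelium and melanocytes summed to 20.1 to 46.4 TPM in +/+, 33.3 to 80.5 in Cre/+ and 24.97 to 47.5 in Cre/Cre. *Ttr* (11.4 to 56.4) and *Rpe65* (1.03 to 11.6) were the most abundant of these, and *Tyr* stayed below 1 TPM in all libraries. The 6 genes of fibroblasts and choroid summed to 4.19 to 4.64, 4.402 to 5.37 and 4.64 to 10.1, mostly from *Col1a2* and *Col1a1*, with *Lum*, *Pi16* and *Dpt* under 1 TPM in all libraries. How much of the endothelial signal these neighbours gave was not tested.

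Of the 24 ligands and receptors, 23 were tested. In Cre/Cre 0 were higher and 2 lower at an unadjusted p under 0.05. The median log2 fold change was -0.08 in Cre/Cre and -0.04 in Cre/+, and 18 of 23 lay below 0 in Cre/Cre. Over all genes 1.58% were higher and 5.39% lower in Cre/Cre at that limit, and 57.7% lay below 0. *Vegfa*, the ligand of *Kdr* and *Flt1*, measured 228, 239 and 211 TPM in +/+, 203, 229 and 249 in Cre/+ and 204, 190 and 223 in Cre/Cre, with overlap of all groups. *Pdgfa* was lower without overlap in both knock-in genotypes, at 9.39, 9.91 and 9.61 in +/+, 7.14, 7.26 and 8.57 in Cre/+ and 5.80, 8.18 and 7.36 in Cre/Cre. Its log2 fold changes were -0.30 and -0.40 (limma adjusted p = 0.462 and 0.624). *Nrp2*, a co-receptor for VEGF, was lower in every Cre/Cre library (10.9 to 12.7) than in +/+ (14.2 to 15.1), with a log2 fold change of -0.26 (limma adjusted p = 0.679). *Dll4*, the Notch ligand of endothelial tip cells and arteries, had the next smallest p in Cre/+, with 1.46 to 1.91 in +/+ and 0.936 to 1.22 in Cre/+. *Jag1* and *Vegfb* were the other abundant genes, at 79.2 to 96.6 and 47.0 to 62.6 TPM over all libraries.

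In the pericyte list 11 of 14 genes were tested, with a median log2 fold change of -0.12 in Cre/Cre, against -0.024 over all genes tested. At an unadjusted p under 0.05, 0 were higher and 1 lower in Cre/Cre. The lower gene was *Rgs4*, a regulator of G protein signalling that neurons make as well, and the neuronal markers *Thy1*, *Pou4f1* and *Grm6* had log2 fold changes of -0.31, -0.24 and -0.23 beside it. It measured 85.0, 78.9 and 81.4 TPM in +/+, 78.5, 79.7 and 84.1 in Cre/+ and 60.5, 67.8 and 74.9 in Cre/Cre, a log2 fold change of -0.27 (limma adjusted p = 0.543), and the part of neurons in it was not tested. *Vtn*, which photoreceptors also make, was by far the most abundant, with 1228 to 1283 in +/+ and 1065 to 1255 in Cre/Cre. *Notch3*, the receptor that keeps mural cells in their state, was 3.86 to 4.47 in +/+, 2.75 to 3.84 in Cre/+ and 3.03 to 3.59 in Cre/Cre, without overlap with +/+ but with log2 fold changes of -0.25 and -0.26 at limma adjusted p of 0.583 and 0.829. *Mcam* (4.97 to 7.48 over all libraries) overlapped, and *Higd1b* ranged from 1.61 to 7.44. Of the 11 tested genes, 7 lay below 0 in Cre/Cre and 4 above, the latter named here after their values were seen. They were *Zic1* (log2 fold change 0.25), *Atp13a5* (0.23), *Kcnj8* (0.09) and *Abcc9* (0.06). *Zic1* was higher without overlap, as 2.7% of all genes were.

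In the smooth muscle list 14 of 18 genes were tested, with 0 higher and 1 lower at an unadjusted p under 0.05 in Cre/Cre and a median of -0.09. The lower gene was *Srf*, serum response factor, which binds CArG boxes such as those sought in the *Acta2* window. It measured 24.2, 28.2 and 26.4 TPM in +/+, 24.6, 20.7 and 24.2 in Cre/+ and 21.6, 21.9 and 21.8 in Cre/Cre, where the log2 fold change was -0.26 (limma adjusted p = 0.647). *Tpm1* (108 to 128 over all libraries), *Mylk* (63.9 to 76.9) and *Ppp1r12b* (40.9 to 52.7) were the most abundant. Of these *Mylk*, the myosin light chain kinase, was lower without overlap in both knock-in genotypes, by 0.10 on the log2 scale in each, while *Synpo2* overlapped (15.5 to 17.4 in +/+, 13.5 to 16.0 in Cre/Cre). The smooth muscle genes *Cnn1*, *Myocd*, *Actg2* and *Kcnmb1* stayed under 1 TPM in every library.

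All 10 genes of the vascular basement membrane were tested, and at an unadjusted p under 0.05 none was higher or lower in either knock-in genotype against +/+. The median log2 fold changes were -0.01 in Cre/Cre and -0.03 in Cre/+. *Col4a1* measured 24.7 to 25.6 TPM in +/+, 23.5 to 28.4 in Cre/+ and 25.2 to 28.9 in Cre/Cre, and *Col4a2*, its partner chain in collagen IV, 23.1 to 26.9, 22.5 to 26.7 and 21.9 to 26.7. *Sparc* was at 205 to 249 over all libraries. *Lamb1* was lower without overlap in Cre/Cre (10.5 to 11.1 against 12.2 to 12.8, limma adjusted p = 0.775), and *Hspg2*, which codes for perlecan, was lower without overlap in Cre/+ (1.49 to 1.67 against 1.83 to 2.39, limma adjusted p = 0.582). *Lama5*, a laminin chain, measured 7.74 to 9.04 in +/+ and 6.44 to 7.98 in Cre/+.

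**Figure D4:**
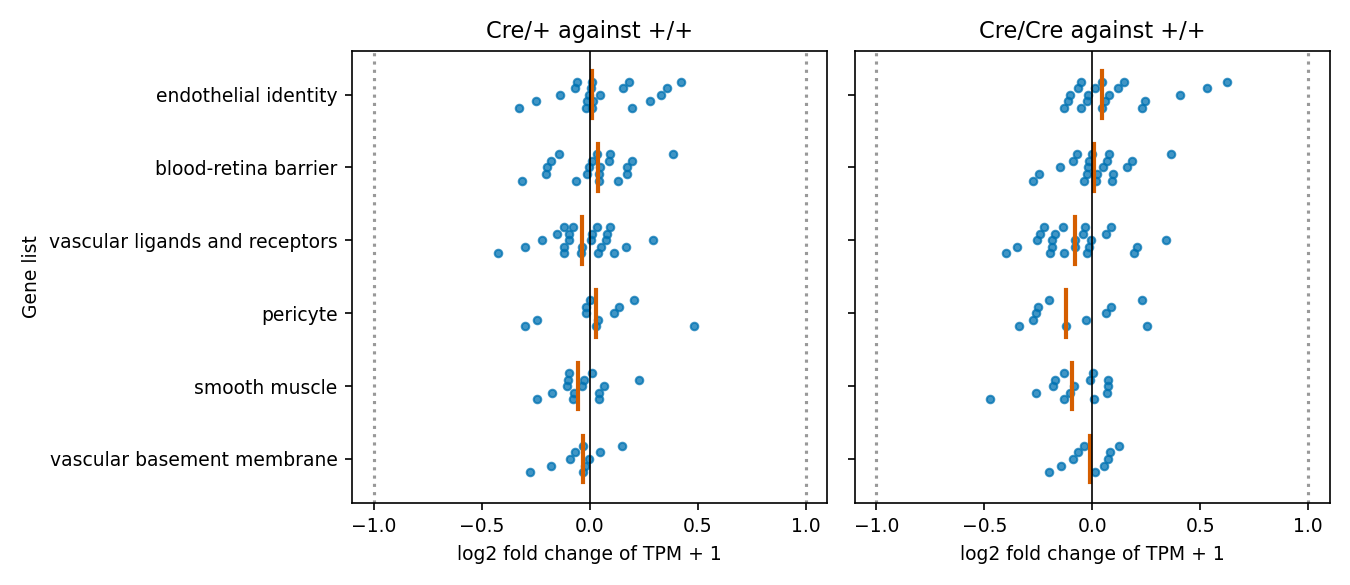
Log2 fold changes of TPM + 1 for the 98 tested genes of the 6 vascular lists in Cre/+ and Cre/Cre against +/+. Each point is a gene, orange bars are list medians, and dotted lines mark 2-fold changes; medians lie between -0.12 and 0.05, and no gene reaches 2-fold.

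Blood and lens were the other tissues whose RNA differed between libraries. The 7 blood genes, led by the globins *Hba-a2* and *Hba-a1*, summed to 164 to 252 TPM in +/+, 130 to 154 in Cre/+ and 238 to 431 in Cre/Cre, the highest being Cre/Cre replicate 1, in which 6 members were lowest. All Cre/+ sums were below those of the other genotypes. The globin *Hbb-bt*, named here after its values were seen, was the 1 gene called in Cre/+ against +/+ (limma adjusted p = 0.00256). It measured 8.29 to 15.5 TPM in +/+ and 0 in every Cre/+ library. The 8 lens genes summed to 1114 in Cre/Cre replicate 2 and to 253 or less in every other library, with *Cryaa* from 6.37 to 480 and *Cryba1* from 1.22 to 238. Of the 6 striated muscle genes, *Myh1* was at 0 in all libraries, and the sum of 12.3 to 20.8 came mostly from *Mylpf* and *Ckm*. Their part in the values of the vascular genes was not tested.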

How the data were processed

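Strand-specific poly(A) RNA-Seq measured both retinas of each of 9 mice at P42, 3 per genotype. Per the study's methods, the authors used Trimmomatic for trimming, HISAT2 for alignment to mm10 and StringTie for quantification. Versions of these tools, and the annotation, are not given in the sources used here. The values the authors deposited are TPM, with a total of 1000000 per library, FPKM, which StringTie scales by gene length and depth, and coverage, the average depth of reads on the bases of a gene. Without counts, the DESeq2 and edgeR tests planned as alternatives could not be run. The ratio of coverage to FPKM gave 4.05 to 4.65 aligned gigabases per library. The precision rests on the spread between 3 libraries, since single genes have no counting error here.

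Rows that share a symbol were added up. Genotypes were compared by limma 3.58.1 (R 4.3.3, trend and robust prior) fitted to log2(TPM + 1) of the 15198 genes whose TPM averaged 1 or more, with genotype as the only term for all 9 libraries, and Benjamini-Hochberg adjustment ran over these genes. The members and lists were chosen with earlier results of these data known. Named genes are all members, *Rbpms*, the actins, and of each vascular list the 3 highest in mean TPM, the 2 with the smallest p in each comparison with +/+ and any called. Markers of other retinal cells were added after the values were seen. For other tissues they are the 2 most abundant genes, and for likeness the 5 highest r in each group. Replicates with the same number had correlated deviations of -0.116 to 0.128 and were not treated as pairs. Alternative fits changed the pseudocount to 0.1, dropped the filter, blocked on replicate number, added *Xist*, kept only the genotypes compared, used FPKM, scaled by median ratios, dropped the robust prior, or left out a library. The fit was tested on simulated data. Figures were drawn with matplotlib 3.10.9.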

Additional observations from a re-analysis of the deposited data

How the results depend on the processing

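No member and no gene of the vascular lists was called in any comparison under the 8 alternatives or the 9 fits without a library. Of 459 refitted log2 fold changes of members, 34 changed sign and 0 passed the adjusted p. The cause of the changes below was not tested. Over all genes, the calls in Cre/+ against +/+ went from 1 to 0 with FPKM and 2 with only the genotypes compared, and ranged from 1 to 5 without single libraries. Those in Cre/Cre against +/+ went from 1 to 3 with a pseudocount of 0.1, 3 with *Xist* and 5 with only the genotypes compared, and ranged from 1 to 4. Those in Cre/Cre against Cre/+ went from 2 to 1 without the filter, 1 with the replicate block, 1 with median-ratio scaling, 1 without the robust prior, 6 with *Xist* and 6 with FPKM, and ranged from 1 to 8. The replicate block changed no other call.

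With *Xist*, *Cldn5* turned to -0.062 in Cre/+ against +/+, -0.108 in Cre/Cre against +/+ and -0.047 in Cre/Cre against Cre/+, *Tek* to 0.097 in Cre/Cre against +/+, and *Pdgfrb* to -0.004 in Cre/Cre against Cre/+. With FPKM, *Pecam1* turned to -0.014 and *Pdgfrb* to -0.011 in Cre/Cre against Cre/+. Without single libraries, log2 fold changes in Cre/+ against +/+ ranged from -0.082 to 0.194 for *Cldn5*, -0.029 to 0.218 for *Pecam1* and -0.242 to 0.216 for *Acta2*. In Cre/Cre against +/+ they ranged from -0.015 to 0.18 for *Cldn5*, -0.071 to 0.025 for *Flt1*, -0.108 to 0.094 for *Tek*, -0.314 to 0.174 for *Acta2* and -0.133 to 0.034 for *Rgs5*. In Cre/Cre against Cre/+ they ranged from -0.1 to 0.176 for *Cldn5*, -0.134 to 0.114 for *Pecam1*, -0.168 to 0.029 for *Kdr*, -0.038 to 0.073 for *Pdgfrb* and -0.222 to 0.136 for *Acta2*. The mural sum of Cre/+ was 96.78% to 110.3% of +/+, with the highest value without +/+ replicate 1 and the lowest without +/+ replicate 3. *Kdr* in Cre/Cre against +/+ stayed below 0 in every fit, from -0.37 to -0.14. How far depth limits genes near 1 TPM, such as *Acta2* and *Myh11*, could not be measured without counts.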
